A study of Mus musculus with 6 samples.

Results

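Leukocytes other than macrophages are described here in single cell RNA sequencing (scRNAseq) of the mouse aortic root and ascending aorta. They made up 139 of the 24972 cells that passed the filter on genes, unique molecular identifiers (UMIs, each standing for 1 captured RNA molecule) and mitochondrial reads, or 0.557% (exact binomial 95% interval 0.468 to 0.657%). Cells were chosen by measured values: at least 1 UMI of Ptprc, which encodes the leukocyte surface phosphatase CD45, at least 1 UMI of 2 or more of Cd3e, Cd3d, Cd3g, Trac, Nkg7, Cd79a, Cd52, Coro1a, Rac2 and Laptm5, and low counts of the macrophage complement genes C1qa, C1qb and C1qc (under 10 per 10000 UMIs together), of the smooth muscle gene Myh11 (under 5) and of the fibroblast gene Dcn (under 20). These genes are not results. The panel holds 4 T cell genes and no gene that is particular to dendritic cells or neutrophils, so the class shares below also depend on it.

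The study set 4 control mice (Tgfbr1+/+) beside 2 Loeys-Dietz syndrome (LDS) model mice heterozygous for a Tgfbr1 missense mutation (Tgfbr1M318R/+), all at 16 weeks of age and on a 129SVE background. By their labels, 2 of the controls (Tgfbr1+/+; Wnt2CRE; EGFP-L10a) also carried a green tracer allele and a Cre recombinase. The labels place this Cre under the Wnt2 promoter and describe it as specific to the cardiac neural crest (CNC), a lineage that does not give rise to leukocytes. The aortas were flushed with PBS, digested, and sorted for nucleated cells with intact membranes. The cell barcodes carry a suffix from 1 to 6 that tells 6 libraries apart, but no source used here pairs a suffix with a mouse, so genotypes were not compared and each library is given by its number.

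Leukocytes patrol and settle in the outer layer of arteries. T cells recognise antigen through a receptor of alpha and beta or of gamma and delta chains, bound to the CD3 complex. Conventional dendritic cells take up antigen and present it on MHC class II, and their type 1 subset specialises in cross-presentation of antigen to CD8 T cells. Neutrophils are short-lived granulocytes of the blood that carry little RNA.

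Library 6 stood apart before any gene was compared. Leukocytes numbered 10 in library 1, 8 in library 2, 27 in library 3, 34 in library 4, 6 in library 5 and 54 in library 6, of 3225, 2859, 5019, 6395, 5611 and 1863 filtered cells. Their share was 0.310, 0.280, 0.538, 0.532 and 0.107% in libraries 1 to 5 and 2.90% in library 6 (interval 2.18 to 3.77%). The libraries other than library 6 gave 85 leukocytes, or 0.368% of their filtered cells. Macrophages, gated in the same way but with at least 10 C1q UMIs per 10000, numbered 22, 21, 52, 57, 27 and 33. The macrophage share of filtered cells was 0.682, 0.735, 1.04, 0.891, 0.481 and 1.77%, so it too was highest in library 6. There were between 0.222 and 0.596 leukocytes per macrophage in libraries 1 to 5 and 1.64 in library 6, so only in library 6 did leukocytes outnumber macrophages. Each leukocyte held a median of 3754 UMIs and 1477 genes, against 6522 UMIs and 2346 genes in all filtered cells outside the gate. Macrophages held a median of 5968 UMIs. Summed over a library, the leukocytes gave from 24742 UMIs in library 5 to 311462 in library 6, so levels in library 5 rest on few molecules. All intervals given here cover counting error only.

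The gate was checked against its edges and against other cell types. Of the 406 filtered cells with Ptprc, 373 had at least 2 panel genes, and of those 218 were set aside by C1q, 9 by Myh11 and 7 by Dcn. The nearest cells on either side of each limit had 8.02 and 10.5 C1q, 4.38 and 6.03 Myh11, and 9.32 and 29.1 Dcn UMIs per 10000. No C1q UMI was found in 133 of the 139 cells, while 43 cells rested on 1 Ptprc UMI, and 20 filtered cells with at least 2 of Cd3e, Cd3d, Cd3g and Trac were left out for want of a Ptprc UMI. Summed markers of smooth muscle stood at 5.53 UMIs per 10000 in the leukocytes against 312 in other cells, those of fibroblasts at 6.74 against 289, and those of endothelium at 0.290 against 4.48. The tracer transcript had a UMI in 1 of the 139 cells. Outside the gate it had a UMI in 214 of 3215, 145 of 2851, 125 of 4992 and 218 of 6361 cells of libraries 1 to 4. In libraries 5 and 6 it had a UMI in 7 of 5605 and 6 of 1809 such cells. It was thus too rare in other cells to tell leukocytes from them. The labels name the tracer allele for 2 mice, yet its transcript was more frequent in each of libraries 1 to 4 than in libraries 5 and 6. The reason was not tested.

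Some barcodes were shared or had high doublet scores. In all, 8 leukocytes had a barcode sequence that also occurs in another library. Of their 10 partner barcodes, 8 held under 1000 UMIs, and 2 held more UMIs than the leukocyte: a B-like cell of library 2 (2856 UMIs) shared its barcode with a barcode of library 6 that held 87374 UMIs, and a neutrophil-like cell of library 6 (2767 UMIs) shared its own with a cell of library 4 that held 3765. Of the leukocytes, 38 lay in the top 5% of doublet scores of their library, which is 31 of 74 T-like, 3 of 24 neutrophil-like and 0 of 20 dendritic-like cells. Counts with these cells removed are given beside the results they move.

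Each cell was assigned to the class whose defining genes it showed most of, with at least 2. T-like cells were the most numerous, at 74 cells or 53.2% of the leukocytes (44.6 to 61.7%). They numbered 8, 6, 14, 21, 5 and 20 in libraries 1 to 6 and were the largest class in libraries 1 to 5. Neutrophil-like cells came to 24, or 17.3%, and all 24 were in library 6, where they outnumbered T-like cells. Dendritic-like cells came to 20, or 14.4% (9.02 to 21.3%), at 1, 1, 6, 9, 0 and 3 by library. B-like cells numbered 2 (1 in library 2 and 1 in library 6), monocyte-macrophage-like cells 3, and cells like type 2 innate lymphoid cells 1. Not 1 cell was assigned to natural killer (NK) cells or to mast cells and basophils, which allows a share of each of up to 2.16%. A further cell of library 6 was tied between classes and 14 cells could not be assigned. Without library 6, T-like cells made up 54 of 85 leukocytes (63.5%) and dendritic-like cells 17 (20.0%), with 0 neutrophil-like cells.

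**Figure D1:**
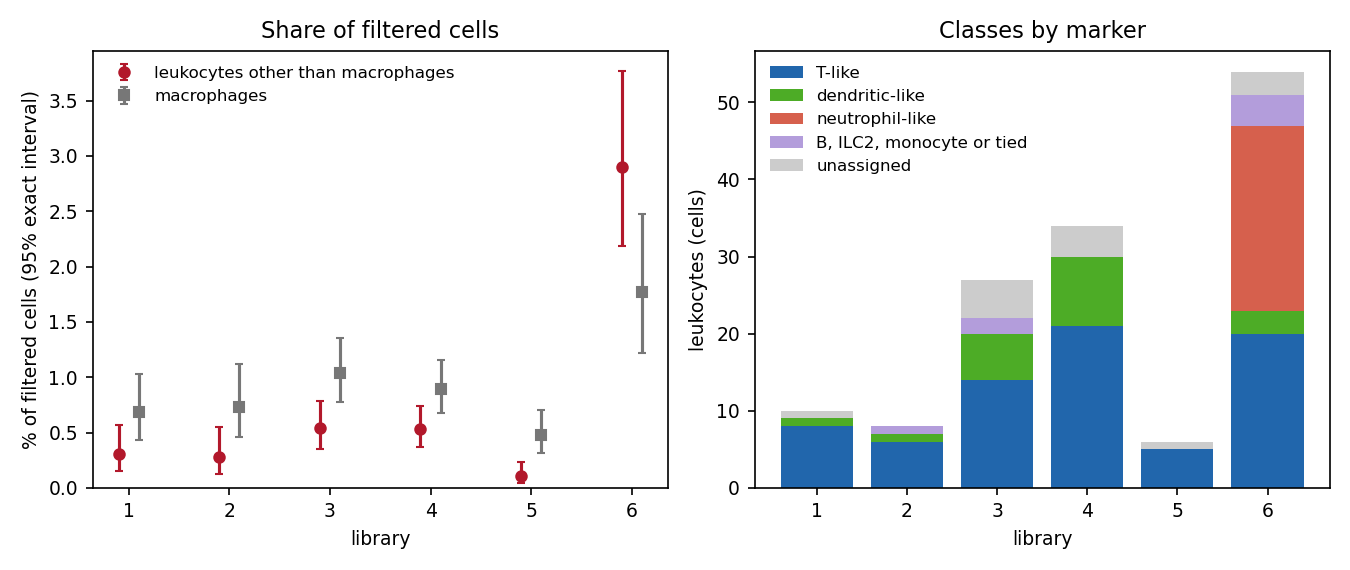
Left, the share of filtered cells that were leukocytes other than macrophages (circles) or macrophages (squares) in each of the 6 libraries (percent; bars show exact binomial 95% intervals); right, the number of leukocytes of each class by library, as stacked bars. For leukocytes library 6 sits at 2.90%, above the intervals of the other libraries, and is the only library with neutrophil-like cells inside the filter.

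The T-like cells could be described by 2 sets of genes, and library 6 differed from the others in which set its cells held. In libraries 1 to 5 most T-like cells carried genes of settled tissue T cells, many with transcripts of the gamma-delta receptor. In library 6 most carried genes used by T cells during their development in the thymus, where receptor genes are rearranged, cells divide and then pass through a stage with both Cd4 and Cd8. Whether thymic tissue entered library 6 was not tested, so counts that include this library may not describe the aorta alone. Genes for both descriptions were chosen after the values of these cells were seen, so their separation of the cells is a description and not a test: Il7r, Icos, Cxcr6, Il18r1, Maf, Rora and Cd69 for the former, and Rag1, Rag2, Dntt, Ptcra, Arpp21, Ccr9, Satb1, Themis and Lef1 for the latter. At least 3 of the 7 tissue genes were detected in 8 of 8, 6 of 6, 14 of 14, 19 of 21 and 3 of 5 T-like cells of libraries 1 to 5, and in 2 of 20 of library 6. At least 3 of the 9 development genes were detected in 0 of 8, 0 of 6, 0 of 14, 2 of 21, 1 of 5 and 16 of 20. No cell reached 3 of both, and 3 of the 74 cells reached neither. Library 6 had the lowest share for the tissue genes and the highest for the development genes.

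**Figure D2:**
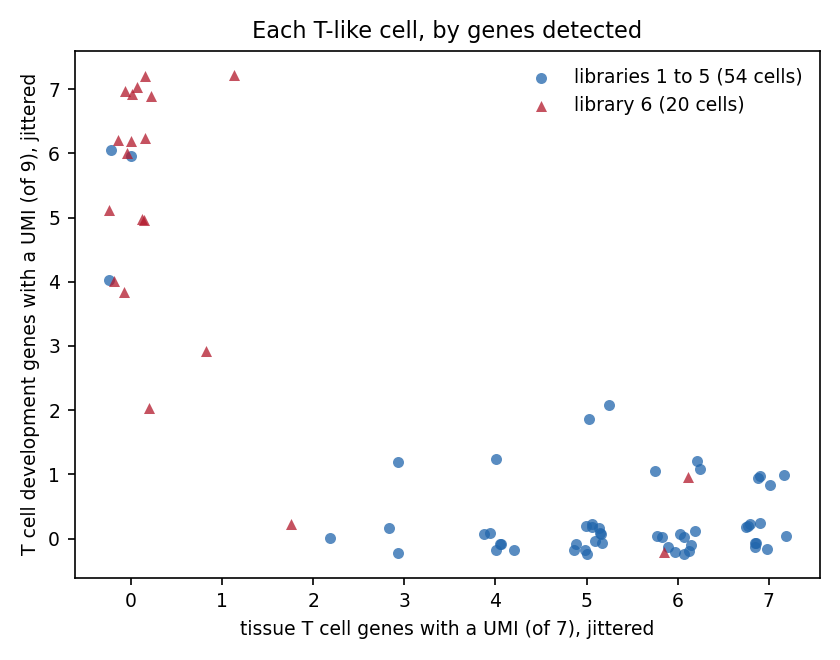
Each point is a T-like cell, placed by how many of the 7 tissue genes (horizontal) and how many of the 9 development genes (vertical) had a UMI, with circles for libraries 1 to 5 and triangles for library 6 and positions jittered to show overlap. Most cells of libraries 1 to 5 lie along the horizontal axis and 16 of the 20 cells of library 6 lie at 3 or more development genes.

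Of the receptors and surface proteins among the tissue genes, Il7r, the receptor for the survival cytokine IL-7, was detected in 8 of 8, 5 of 6, 12 of 14, 19 of 21 and 3 of 5 T-like cells of libraries 1 to 5 and in 4 of 20 of library 6. Its level summed over T-like cells was 1134 UMIs per 1000000 UMIs (CPM) in libraries 1 to 5 and 206 in library 6. Icos, a costimulatory receptor, was detected in 7 of 8, 4 of 6, 10 of 14, 17 of 21, 1 of 5 and 2 of 20 cells, and Cxcr6, a chemokine receptor of tissue-resident lymphocytes, in 5 of 8, 6 of 6, 12 of 14, 15 of 21, 3 of 5 and 2 of 20. For these receptors library 6 had the lowest share of cells. Cd69, which holds lymphocytes in tissue by opposing the egress receptor S1pr1, was the exception, as library 5 had 0 of 5 cells with it and library 6 had 2 of 20. The transcription factors among them, Maf and Rora, had a UMI in 40 and 41 of the 54 cells of libraries 1 to 5 and in 2 and 3 of the 20 of library 6.

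Constant genes of the gamma-delta receptor (Trdc, Tcrg-C1, Tcrg-C2 and Tcrg-C4) were found in most T-like cells. At least 1 had a UMI in 7 of 8, 6 of 6, 11 of 14, 17 of 21 and 4 of 5 cells of libraries 1 to 5 and in 13 of 20 of library 6. The genes behind these counts differed. Tcrg-C1 was detected in 38 of the 54 cells and in 1 of the 20, whereas Trdc was detected in 18 of the 54 and in 11 of the 20, and 10 of those 11 cells of library 6 also held Trac, the alpha chain constant gene. Trac and Trdc were found together in 3 of the 54 cells. Cd163l1, a scavenger receptor of gamma-delta T cells that make IL-17, was found in 2, 1, 3, 2, 3 and 0 cells by library, and each of these 11 cells also held Trdc. Tcrg-C1 and Tcrg-C2 share 11.9% and 12.0% of their 60-base windows, and Trbc1 and Trbc2 share 38.2% and 41.5%, so the split between genes of each pair is uncertain.

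Il17a, which encodes the cytokine IL-17A that recruits neutrophils, had the largest ratio between T-like cells and the other leukocytes, and it came from few cells. It had 257 UMIs in 11 T-like cells and 0 UMIs in the other leukocytes, which sets its level in T-like cells (774 CPM) at least 6.78 above the others on the log2 scale. The UMIs per positive cell were 2, 12 and 60 in library 1, 1, 3, 4 and 12 in library 3, 1 and 14 in library 4, 1 in library 5 and 147 in library 6, with none in library 2. A single cell thus held 57.2% of all Il17a UMIs, while 5 of 6 libraries had a positive cell. Of the 11 cells, 9 held a gamma or delta constant gene, as did 58 of all 74 T-like cells. Trdc itself was found in 5 of the 11, and Trac without Trdc in 4. Cd4 or a Cd8 gene was found in 0 of the 11. Over the 74 cells Cd4 was found in 11 and a Cd8 gene in 22, mostly in library 6. In mm10 coordinates Il17a spans chr1:20730905-20734496 (plus strand). The interferon gene Ifng was found in 1 T-like cell, and the regulatory T cell factor Foxp3 in 0 of 74, which allows up to 4.05% of cells with a UMI.

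The receptor, costimulatory and signalling genes of T cells followed the class. Lat, the membrane adaptor that relays the T cell receptor signal, was found in 63 of the 74 cells at 467 CPM and in 0 of the 65 other leukocytes, a difference of at least 6.05 on the log2 scale. Cd247, the zeta chain of the receptor complex, was found in 34 cells and in 0 others, and Thy1, a surface glycoprotein of mouse T cells, in 59 cells against 2 others. The killing genes Gzma, Gzmb and Prf1 had a UMI in 4 of the 74 cells in all, and Klrb1c, the NK receptor NK1.1, in 1.

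Among the development genes, Dntt, the polymerase that adds bases at receptor gene joins, was detected in 14 of the 20 T-like cells of library 6 (437 CPM) and in 2 of the 54 of libraries 1 to 5 (14.2 CPM). Rag1, which cuts receptor genes for rearrangement, had a UMI in 6 of the 20 and in 0 of the 54. Arpp21, Ccr9 and Themis were found in 14, 10 and 13 of the 20 cells and in 3, 2 and 5 of the 54. Each was detected in a larger share of the cells of library 6 than of the other libraries as a whole. Of the factors, Satb1 had 1203 CPM in library 6 and 152 in libraries 1 to 5, Lef1 272 and 42.7, and Tcf7 1030 and 218. In mm10 coordinates Dntt spans chr19:41029275-41059525 (plus strand) and Rag1 spans chr2:101638282-101649501 (minus strand).

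The coreceptors and the cell cycle followed the same split. Cd8a was detected in 15 and Cd8b1 in 15 of the 20 T-like cells of library 6, against 2 and 4 of the 54 of libraries 1 to 5. Cd4 together with a Cd8 gene was found in 10 of the 20 cells and in 1 of the 54. That 1 cell, in library 4, also held at least 3 development genes. Mki67, a proliferation gene, was detected in 16 of the 20 cells and in 4 of the 54, and all 16 development-gene cells of library 6 held it. Of the T-like cells of library 6, 13 of 20 lay in the top 5% of doublet scores, against 18 of 54 in libraries 1 to 5, and the split was also seen without these cells. In the 7 cells of library 6 that were left, 7 held at least 3 development genes and 0 at least 3 tissue genes, against 3 and 32 of the 36 left in libraries 1 to 5. These 36 were 1, 2, 10, 20 and 3 cells by library, so most came from libraries 3 and 4. Of the 3 in library 5, 1 held at least 3 development genes and 1 at least 3 tissue genes. The plot of detection by gene shows both gene sets side by side.

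**Figure D3:**
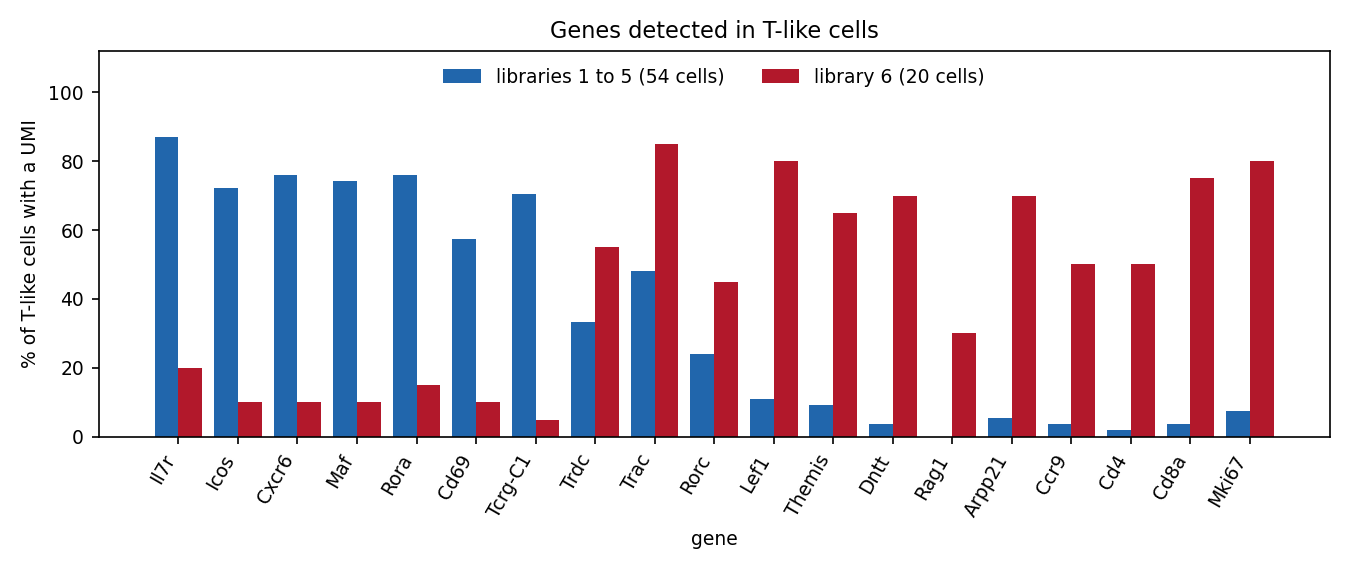
Percent of T-like cells with at least 1 UMI of each gene (vertical axis), as bars for the 54 cells of libraries 1 to 5 and the 20 cells of library 6. Il7r, Icos, Cxcr6, Maf, Rora and Tcrg-C1 are high in libraries 1 to 5, and Dntt, Cd8a, Lef1 and Mki67 in library 6.

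The 20 dendritic-like cells carried mostly genes of type 1 conventional dendritic cells. Xcr1, the receptor for a chemokine that activated CD8 T cells make, was found in 1, 1, 6, 8, 0 and 2 cells by library, or 18 of 20, and Clec9a, a receptor for dead cells, in 12. The factors Irf8 and Batf3, both needed for this subset, were found in 16 and 11 cells. Of the genes linked with the type 2 subset, Mgl2 was found in 4, Clec10a in 2, and Cd209a and Irf4 in 0 of 20 cells, which allows up to 15% of cells with a UMI of each. Xcr1, Clec9a, Cd209a and Clec10a were among the genes used to assign the class, so their counts only describe it.

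Further genes of the dendritic-like cells had no part in the assignment. Cd207, the lectin langerin, was found in 1, 1, 4, 7, 0 and 1 cells by library, at 319 CPM over the class against 1.78 in all other leukocytes, a log2 ratio of 6.69. Epcam, a cell adhesion molecule found on epithelium and on some dendritic cells, was found in 17 of 20 cells at 744 CPM against 51.7 (log2 ratio 3.81). In the same cells Itgae, the alpha chain of the integrin CD103, was found in 17, Naaa in 19, Wdfy4, which cross-presentation requires, in 15, and the RNA sensor Tlr3 in 11. Cd207 and Epcam were detected in every library that held the class. In contrast, of the other genes that led the class by size, Nppc came from 6 cells and Cox6a2 from 1. Siglech, a gene of plasmacytoid dendritic cells, had a UMI in 7 cells, but 37 of its 44 UMIs lay in a single cell of library 6. Cd74, the chaperone of MHC class II, stood at 54110 CPM in the class.

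The 14 unassigned cells shared some genes with the dendritic-like class and lacked others. H2-Aa was detected in 11, Epcam in 7 and Xcr1 in 5 of them, but Flt3 in 2, Cd207 in 1 and Clec9a in 0. A single unassigned cell of library 6 held Ccr7, Fscn1 and Ccl22 together, genes of dendritic cells that migrate to lymph nodes, and Ccr7 was found in 1 of the 20 dendritic-like cells.

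Most neutrophil-like cells held transcripts of several cytokines and chemokines. Il1b, the precursor of interleukin-1 beta, was detected in 24 of 24 cells at 19034 CPM, Cxcl2, which attracts neutrophils, in 22 at 55509 CPM, Tnf in 21 and the chemokine genes Ccl3 and Ccl4 in 20 and 16. Csf1, the growth factor of macrophages, was found in 16 of these 24 cells and in 0 of the 115 other leukocytes, which sets it at least 7.40 higher on the log2 scale over all libraries. Siglecf, a lectin of eosinophils and of some neutrophils, was found in 12 of the 24, while the eosinophil granule genes Epx and Prg2 were at 0. Within library 6, Csf1 stood at least 5.76 above the other leukocytes on the log2 scale.

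Among granule genes, Mmp9 was spread over 19 of the 24 cells, at no more than 12 UMIs in any, while Ngp, Camp and most S100a8 came from few cells. S100a8 had 5263 UMIs in all leukocytes, of which 3921 lay in a single neutrophil-like cell of 22859 UMIs. That cell also held 805 UMIs of Ngp, 1278 of Camp and 179 of Ltf, which encode granule proteins that neutrophils make as they mature in bone marrow, and 16 of their regulator Cebpe. The tied cell of library 6 had a like profile, with 410 UMIs of S100a8, 538 of Ngp and 458 of Camp. Outside the gate, filtered cells of library 6 showed S100a8 at 60.4 CPM and S100a9 at 94.8 CPM, against at most 7.93 and 18.2 CPM in any other library. Low counts of S100a8 or S100a9 in a cell of library 6 are therefore uncertain as a sign of expression, yet the class rule counted any UMI of them. For example, 1 neutrophil-like cell was assigned on 1 UMI of S100a8 and 1 of Csf3r, and another on 1 of S100a9 and 2 of Csf3r. With at least 3 class genes required, neutrophil-like cells numbered 18.

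How many neutrophil-like cells were seen depended on the filter of more than 1000 genes. The 24 inside it held from 1005 to 3425 genes with a median of 1096.5, and 22 had under 1500. With more than 500 genes and 1000 UMIs instead, neutrophil-like cells numbered 0, 8, 3, 8, 3 and 137 by library, or 159 of 286 leukocytes (55.6%), at a median of 777 genes. T-like cells then numbered 81 and dendritic-like cells 20. Library 6 held most of the neutrophil-like cells under both filters, while 4 of the other 5 libraries gained some.

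**Figure D4:**
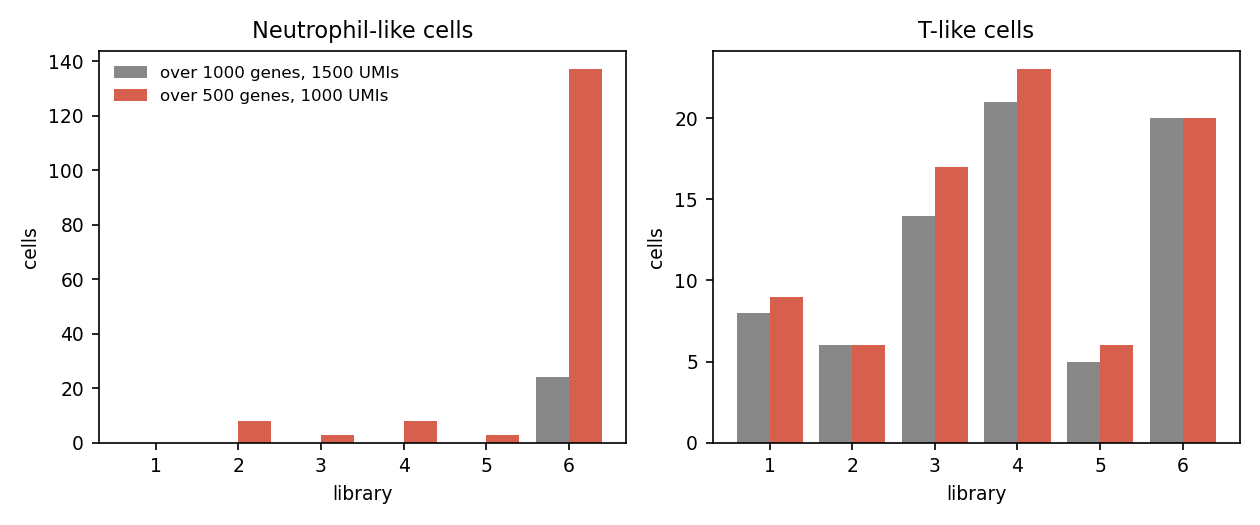
Number of neutrophil-like (left) and T-like cells (right) in each library under the filter of more than 1000 genes and 1500 UMIs and under more than 500 genes and 1000 UMIs. For neutrophil-like cells library 6 has 24 and 137, and libraries 2, 3, 4 and 5 go from 0 to 8, 3, 8 and 3.

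Against all other filtered cells, within each library, 483 of 9880 genes of at least 10 CPM on either side were higher in leukocytes by at least 2-fold in every library, with a UMI in each (4.89%). In the other direction 367 of 1238 genes deep enough to be judged were lower by at least 2-fold in every library (29.6%), and these counts use different sets of genes. The median log2 ratio over all genes was -0.34, or -0.03 on UMIs summed over libraries. With the top 5% of doublet scores removed, 242 genes were higher in every library. No p-value is given, because the cells compared were chosen on these counts.

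With the gate genes left out, genes of at least 50 CPM that were higher in every library were ranked by their ratio. The 24 genes with the largest ratio were mostly those of T cells, with a few of dendritic cells. Icos had the largest: its level was 415, 282, 295, 409, 404 and 77.1 CPM in the leukocytes of libraries 1 to 6 and 0.245 CPM over other cells. Il7r stood at 717, 517, 338, 638, 808 and 138 CPM, and Cxcr6 at 283, 282, 259, 253, 404 and 54.6 CPM. For each of these genes the leukocytes of library 6 were lowest. Trbc1, the beta chain constant gene, went the other way, at 170, 470, 72.0, 126, 404 and 1580 CPM. T-like cells made up 37.0% of the leukocytes of library 6, against 51.9% to 83.3% in libraries 1 to 5. How far this mix of classes sets the levels was not tested, and the share of all genes lowest in library 6 was not counted. Others of the 24 included the lymphocyte genes Cd226, Ikzf3, Trdc, Tcrg-C1, Slamf7, Klrk1, Skap1, P2ry10, Gimap3, Trbc2, Il18r1, Bcl11b, Pdcd1, Itgb7 and Lat. The dendritic genes Epcam and Xcr1 were also among them, with Sept3 and the aspartic protease gene Napsa. Xcr1 stood at 31.3 CPM or more in every library.

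Genes of T cell receptor signalling were higher in leukocytes as a group, with a median log2 ratio of 7.52 over 17 genes and 10 of 17 called higher, against 4.89% of all genes. Icos and Skap1 were at the top of the list and Cd5 and Cd6 at the bottom, found in 3 of 6 libraries each. Tissue residency genes had a median of 6.06, with 5 of 7 called. Il7r led, closely followed by Cxcr6, and Itga1, the integrin alpha 1 chain, was lower in 6 of 6 libraries, at 7.91 CPM against 74.8. Leukocyte adhesion genes had a median of 5.32 with 7 of 13 called. Itgb7, which pairs with Itgae, led at 290 CPM against 0.691, and Itgb1 was lower in 6 of 6 libraries, at 202 CPM against 1122. Of the intracellular kinases, GTPase regulators and transcription factors of leukocytes, 13 of 20 were called, led by Ikzf3 and Ptpn22.

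Genes of MHC class II presentation had a median log2 ratio of 5.67 against other cells, with 10 of 11 called, against 4.89% of all genes. Few cells carried them in the smaller libraries. H2-Aa had a UMI in 2 of 10, 2 of 8, 13 of 27, 12 of 34, 1 of 6 and 6 of 54 leukocytes by library. Against macrophages the median was -0.79 and 0 of 11 were called higher, beside 1.90% of all genes. It ran from -2.26 to 1.06 over libraries, above 0 in 2 of them, and was 0.13 without the top 5% of doublet scores. Cd74 stood at 19380, 11067, 39721, 35544, 15641 and 6980 CPM in the leukocytes of libraries 1 to 6. Libraries 3 and 4, which held 15 of the 20 dendritic-like cells, were highest, and library 6 was lowest. H2-Oa and H2-Ob, which regulate peptide loading, had the largest ratios of the list to other cells.

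Secreted factors were uneven. Of 22 cytokine genes measured, 12 reached 10 CPM in leukocytes or in other cells. Of these 12, 4 were called higher than in other cells, against 4.89% of all genes. The largest ratios were those of Il17a, which was found in 5 of 6 libraries and so was not called, and of Ltb, the lymphotoxin beta gene. Of the chemokine genes 1 of 14 was called, a share near that of all genes, namely Cxcl10, at 433 CPM against 23.5 in other cells, and Cxcl12, a chemokine of stromal cells, was at 15.8 against 652 CPM. The chemokine list is a case where scaling sets the direction: its median was -1.44 over libraries and 3.66 on summed UMIs, in which library 6 weighs most. It was -4.46 without library 6 and 1.31 without library 5. Against macrophages 0 of 16 chemokine genes were called higher, and 8 were lower by any amount in every library, against 10.1% of all genes. Ccl7, a monocyte chemokine, stood at 6.60 CPM in leukocytes and at 3404 CPM in macrophages. Of 17 chemokine and egress receptors measured, 11 reached 10 CPM, and 4 of these 11 were called higher than in other cells. Cxcr6 and Xcr1 led, and Cxcr2, a neutrophil receptor, was found in 2 libraries.

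**Figure D5:**
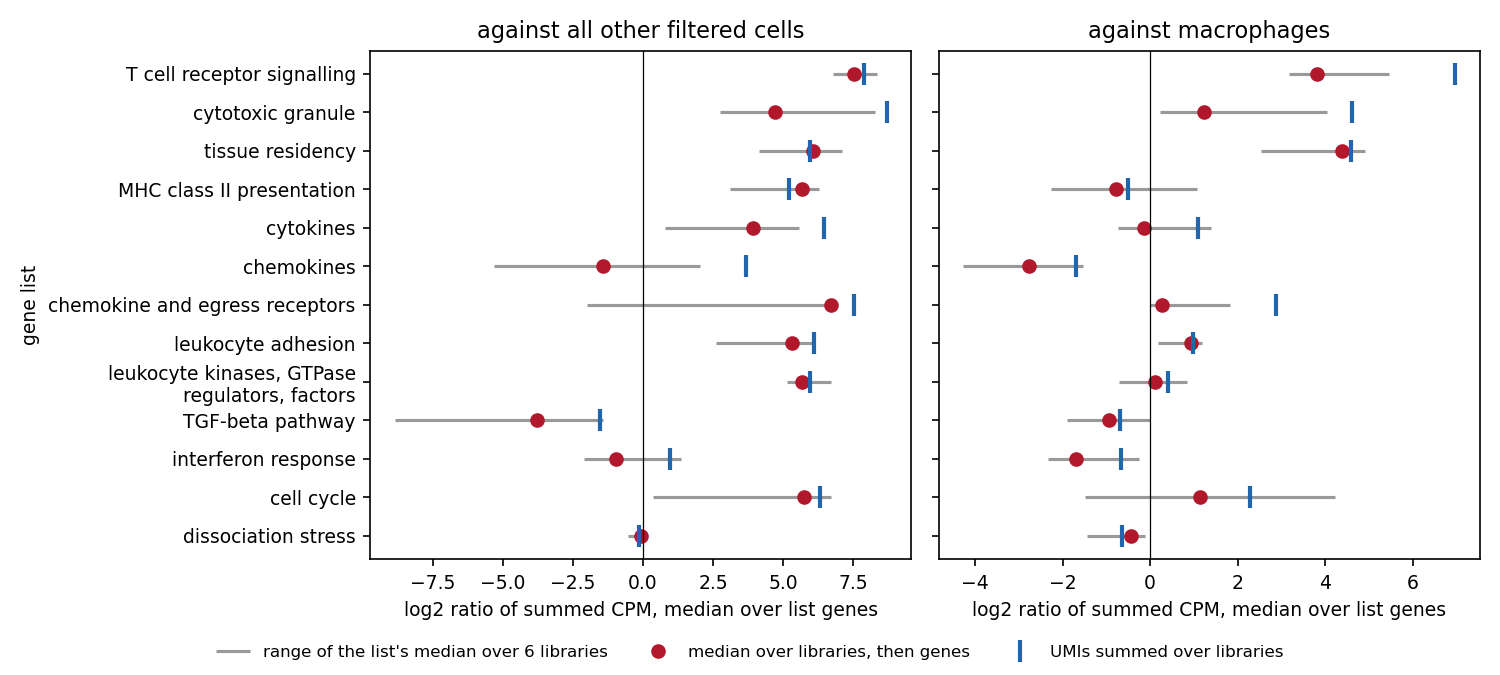
Median log2 ratio of each gene list in leukocytes against other filtered cells and against macrophages (points, median over libraries and then genes; horizontal lines, range of the list's median over the 6 libraries; vertical ticks, UMIs summed over libraries; the black line marks a ratio of 0). T cell receptor signalling lies at 7.52 and 3.82, and MHC class II presentation at 5.67 and -0.79.

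Genes of the TGF-beta pathway, which the LDS mutation affects, were mostly low in leukocytes. Of 20 genes, 1 was called higher, against 4.89% of all genes. In every library 10 were lower by any amount, against 25.7% of all genes. That count set no limit on depth, so genes with 0 UMIs in small libraries enter it. The median log2 ratio was -3.79 (-1.55 on summed UMIs). This median ran from -8.85 to -1.44 over libraries, and from -6.02 without library 6 to -1.62 without library 2. Among the ligands, Tgfb1, the form that leukocytes and platelets make, stood at 377, 157, 259, 337, 283 and 218 CPM in leukocytes of libraries 1 to 6, against 69.7 in other cells and 283 in macrophages. It was higher than in other cells in 6 of 6 libraries, with a median log2 ratio of 2.0. The ligands Tgfb2 and Tgfb3 had 1 UMI each. Of the receptors, Tgfbr1, the gene mutated in the model, was at 56.6, 15.7, 14.4, 30.1, 40.4 and 77.1 CPM, and at 57.2 CPM in other cells. Its levels in libraries 1 to 5 lay below the level in other cells, only just so in library 1, and its level in library 6 lay above. In libraries 1 to 5 these levels rest on few UMIs. Tgfbr2 was at 26.4 against 77.9 CPM, and the coreceptor Tgfbr3 had 0 UMIs, which sets it at least 17.5-fold lower than in other cells. Of the nuclear inhibitors, Tgif1 was at 137 CPM against 23.9 and Skil at 273 against 226. At 1500 UMIs per cell, Tgfb1 was detected in 38.8% of leukocytes and 9.02% of other cells.

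Cell cycle, interferon and stress genes complete the lists. At least 3 of 10 cell cycle genes (the list without Stmn1 and Pcna) were detected in 28 of 139 leukocytes (20.1%, 13.8 to 27.8%), in 15 of 212 macrophages (7.08%) and in 54 of 24833 other cells (0.217%). Without library 6 the count was 9 of 85 leukocytes (10.6%). The interferon response genes had a median log2 ratio of -0.98, or 0.95 on summed UMIs. The dissociation stress genes had a median of -0.09, with 0 of 20 called higher and 7 lower by any amount in every library, against 25.7% of all genes. Fos, an immediate early gene, was at 984 CPM in leukocytes and 5380 CPM in other cells. Of 13 cytotoxic genes measured, 6 reached 10 CPM, some only through their level in leukocytes. These 6 had a median of 4.69, with 3 called, against 4.89% of all genes. At 1 CPM the median was 3.63 over 10 genes. The activating receptor gene Klrk1 and the protease gene Ctsw led, while Gzma, Gzmb, Gzmk and Prf1 were each under 10 CPM.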

How the data were processed

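The authors deposited 1 matrix of UMI counts per gene and cell for all 6 mice, made from 10x Genomics 3' v3 libraries with Cell Ranger 6 on mm10 per the submitters' processing notes (the matrix header names 4.0.0). Barcode suffixes 1 to 6 were taken as libraries. Their genotype is not given in the sources used here, so results are descriptions per library, with exact 95% intervals for counting error and no test. Of 30716 barcodes, 24972 had over 1000 and under 5000 genes, over 1500 and under 25000 UMIs and under 20% mitochondrial UMIs. The filtered cells of a library held 1.82e+07 to 3.81e+07 UMIs in all. Each library gives the ratio of summed CPM, with 0.5 UMI added and scaled to the totals, and the median over libraries is printed. Ratios of lists use genes of 10 CPM or more in the leukocytes or in the cells compared, so a gene can enter through its leukocyte level alone. A gene was called where it differed by 2-fold or more in every library. Counts of genes lower by any amount set no limit on depth. Genes named were the 24 of at least 50 CPM that were higher in every library with the largest ratio, the 8 leading each class of at least 10 cells (100 CPM), and 2 from each end of each list. Gate genes were left out of these, and the defining genes of a class were left out of its 8. Some genes that these rules name are not reported here. Genes named beyond these were chosen after their values were seen. The members, gene lists and classes were chosen with earlier results of these data known. For equal depth, cells were thinned to 1500 UMIs. Doublets were scored per library with scrublet as run in scanpy 1.11.5. It marked 0.089% of library 5, 0.49% of library 2 and 0.537% of library 6, and up to 1.92% (library 4). Its calls were not used, as so few were made in some libraries, and why was not tested. No cell was removed, and an alternative dropped the top 5% of scores. Other alternatives changed the filter, the gate, the class rule, the scaling and the libraries used. Scripts used Python 3.11.15, numpy 2.4.6 and scipy 1.17.1 and were tested on simulated data. Gene positions come from GENCODE on mm10.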

Additional observations from a re-analysis of the deposited data

Results flagged for a closer look

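Of 35 values compared over the 6 libraries, 8 had a highest or lowest library far from the rest, where chance alone would flag about 5% of such groups. Most came from library 6. These were the leukocyte share of filtered cells (2.90%), the T-like share of filtered cells (1.07%), and the neutrophil-like share of leukocytes (44.4%) and of filtered cells (1.29%). The median log2 ratio of cytokine genes to macrophages was 1.40 in library 6. The median of UMIs per leukocyte was 6617 in library 2, on 8 cells. The median log2 ratio to other cells was -2.0 for chemokine and egress receptors in library 5, on 6 cells, and 0.36 for cell cycle genes in library 3.

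Barcodes that the filter removes also held signal. A Ptprc UMI and at least 3 neutrophil genes were found in 180 barcodes outside the filter, of which 125 were in library 6.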

How the results depend on the processing

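No paired analysis was possible because no source ties the libraries to mice or to replicate numbers and no test was run. The leukocyte share (0.557%) was 0.384% with 2 Ptprc UMIs required, 1.07% over 500 genes, 0.427% without the top 5% of doublet scores, and 0.368 to 0.687% as each library was left out, lowest without library 6. The T-like share was 28.3% over 500 genes, 42.6% without high doublet scores, 68.4% as a median over libraries and 50.5 to 63.5% leaving out libraries. The dendritic-like share was 6.99% over 500 genes. The neutrophil-like share was 55.6% over 500 genes, 0% as a median over libraries, and 0 to 22.9% leaving out libraries, at 0 without library 6. Genes higher in every library numbered 242 without high doublet scores, 304 with 2 Ptprc UMIs, and 517 to 649 leaving out libraries. Among list medians against other cells, T cell receptor signalling was 8.81 at 50 CPM and 6.97 without high doublet scores, residency 4.67 without high doublet scores, adhesion 3.26 with 2 Ptprc UMIs, and stress -0.30 by per-cell means. At 1 CPM, cytokines gave 0 and receptors 1.77. On summed UMIs, chosen after seeing the data, cytotoxic genes gave 8.69, cytokines 6.47, chemokines 3.66 and interferon genes 0.95, and leaving out libraries moved cytotoxic genes from 2.74 to 7.27. Against macrophages, T cell receptor signalling gave 4.58 at 50 CPM and chemokines -6.02, or -3.80 with 2 Ptprc UMIs. On summed UMIs these gave 6.96 and -1.70, cytotoxic genes 4.60, cytokines 1.08, receptors 2.88 and interferon genes -0.66. Leaving out libraries moved cytotoxic genes from 0.42 to 2.70 and adhesion from 0.43 to 1.23. Of the 8 genes leading the neutrophil-like class, 2 were kept with assignment by mean level. Xcr1 was found in 18.2% of cells at 3000 UMIs and in 16.5% unthinned. Without high doublet scores, chosen after seeing the data, development genes were found in 100% of 7 T-like cells of library 6 (80% of 20 with them). The cause of these changes was not tested. Low cell numbers limit libraries 1, 2 and 5 most.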

Other observations

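With more than 500 genes and 1000 UMIs, the neutrophil-like cells of libraries 1 to 5 (22 cells) could be set beside those of library 6 (137 cells). Il1b was detected in all of both. Retnlg, a gene of mature circulating neutrophils, was found in 20 of the 22 and in 55 of the 137. Ccl3 was found in 6 and 83, Csf1 in 3 and 45, and Siglecf in 1 and 27. Csf3r, the receptor of their growth factor, was found in 19 and 124. The cells of libraries 1 to 5 had Retnlg more widely, at 8513 CPM against 2561, and Ccl3 less, at 422 CPM against 3815. These cells lie outside the filter, come from 4 libraries with 8 or fewer each, and were compared after the values were seen.

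Small classes rest on few cells. The B-like cell of library 2 held 32 UMIs of Igkc, and that of library 6 held 75 of Iglc2. The former also held 2 of Iglc2, and its barcode is the one shared with a barcode of 87374 UMIs in library 6. A monocyte-macrophage-like cell of library 3 held 154 of the 158 Serpinb2 UMIs of all leukocytes. Another, in library 6, held 473 Il1b and 77 Arg1 UMIs.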
